A study of Mus musculus with 19 samples.

Results

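Transcript levels of the exon junction complex and of the factors of nonsense-mediated mRNA decay (NMD) were followed in single mouse embryos labelled as knockouts (KO) of Alyref or Gabpb1 and in other embryos of the same crosses. The genes are those whose symbol in the deposited table is Eif4a3, Magoh, Magohb, Rbm8a, Casc3, Upf1, Upf2, Upf3b or Smg1, and each of the 9 names matched 1 of the 53379 gene rows. All 9 were among the 18410 genes tested.

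The exon junction complex is laid down on mRNA just upstream of each exon-exon junction during splicing and travels with the mRNA to the cytoplasm. Its core is the RNA helicase EIF4A3, clamped on the RNA by the heterodimer of MAGOH and RBM8A (also called Y14), with CASC3 as an outer core subunit. A complex that remains on the mRNA downstream of a stop codon recruits UPF3B and UPF2. They activate the helicase UPF1, which the kinase SMG1 phosphorylates, and the mRNA is then degraded by NMD. ALYREF is an mRNA export adaptor that binds the exon junction complex and the cap-binding complex, and GABPB1 is a subunit of the transcription factor GABP.

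PolyA RNA was sequenced from 19 single B6D2F1 embryos collected 96 hours after insemination, after culture in the embryo medium KSOM. Crosses of Alyref+/- parents gave 2 morulae that were Alyref KO and, as non-KO embryos, 3 morulae with 3 blastocysts. Crosses of Gabpb1+/- parents gave 3 morulae labelled Gabpb1 KO and, as non-KO embryos, 2 morulae with 3 blastocysts, and wild-type (WT) parents gave 3 blastocysts. The submitters called an embryo KO from missing reads over the deletion in the same library, so non-KO embryos may be WT or heterozygous, and no blastocyst is labelled KO. Both stages were taken at the same hour, so morulae here are embryos that had not yet formed a blastocyst at that time. Each cross had fertilisations of its own, and cross and fertilisation cannot be told apart. Replicates are single embryos.

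Libraries held 7.49 to 31.5 M gene counts (M, megacounts), and ERCC spike-in RNA made up 0.501 to 1.94% of all counts. Alyref, at 47.8 and 58.5 CPM (counts scaled to library size) in the KO embryos and 161 to 291 CPM in the non-KO morulae, was lower in KO morulae (log2 fold change -2.06, SE 0.30, adjusted p 0.0227 by edgeR's quasi-likelihood test). That call was lost with spike-in scaling (adjusted p 0.893) and without either KO embryo or non-KO morula 1 (0.0650 to 0.151). Gabpb1 goes against its label: it stood at 78.2, 259 and 150 CPM in the libraries labelled Gabpb1 KO and at 93.8 and 83.3 CPM in its non-KO morulae (0.88, SE 0.39, adjusted p 0.243). Counts per gene do not show the deleted part, and every direction below that rests on those 3 libraries carries this limit. The Alyref counts come from the same libraries whose missing reads gave the KO label, so their difference is not independent of that label. Summed CPM of 7 trophectoderm markers ran from 548 to 1862 in Alyref-cross non-KO morulae, from 2526 to 4032 in Gabpb1-cross non-KO morulae and from 3959 to 6708 in the 9 blastocysts, and 4 oocyte markers summed to at most 9.72 CPM. Cumulus-cell and sperm markers were at or near 0. Counts of 4 Y-linked genes were 1162 or more in 13 embryos and at most 2 in the other 6, and WT blastocyst 1 had both 2550 Y-linked counts and 4075 Xist counts.

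Eif4a3, Magoh and Rbm8a were far more abundant than the NMD factors. In CPM per kb of merged exon length, averaged over the 19 embryos, Eif4a3 was at 261, Magoh at 257 and Rbm8a at 102. Magohb, the paralog of Magoh, was at 26.8 and Casc3 at 4.55. Among the NMD factors Upf3b was at 11.6, Upf2 at 5.57, Smg1 at 2.92 and Upf1 at 2.74 CPM per kb. Eif4a3 lay above 97.9% of the tested genes by this mean and Upf1 above 41.7%. Most neighbours in this order overlapped over the embryos: Eif4a3 spanned 175 to 534 and Magoh 173 to 433 CPM per kb, and Smg1 spanned 1.78 to 4.77 and Upf1 1.35 to 5.63. The range of Rbm8a (70.8 to 165) did not overlap that of Magoh above it or that of Magohb (15.4 to 38.8) below it. The order by CPM per kb depends on the length used. Smg1, with 23984 bases of merged exons, had the highest median CPM of the NMD factors (66.9). In median CPM it was above Upf3b (35.0) and Magohb (46.0). The number of cells and the RNA per cell cannot be told apart in these whole-embryo libraries.

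Each gene varied 2.27-fold (Casc3) to 4.76-fold (Upf3b) between its lowest and its highest embryo, the coefficient of variation over the 19 embryos being lowest for Magoh (23.3%) and highest for Upf3b (50.7%). Eif4a3, Magoh and Rbm8a, which form the trimer, all had their highest level in the same embryo, Alyref-cross non-KO morula 2. That embryo also had the lowest TMM scaling factor (0.8695), and its weight in the correlations below was not tested. Across the 19 embryos, which share groups and library depth, log2 CPM of Eif4a3 and Rbm8a had a Pearson correlation of 0.80, Eif4a3 and Magoh of 0.70, and Magoh and Rbm8a of 0.70. Magohb had negative values, of -0.43 against Eif4a3 and -0.54 against Rbm8a, and a weaker -0.19 against its paralog Magoh. Upf3b correlated with Rbm8a at 0.81, whereas Upf1 reached at most 0.43 with any of the others, and that with Casc3. The plot of each gene by embryo shows these levels.

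**Figure D1:**
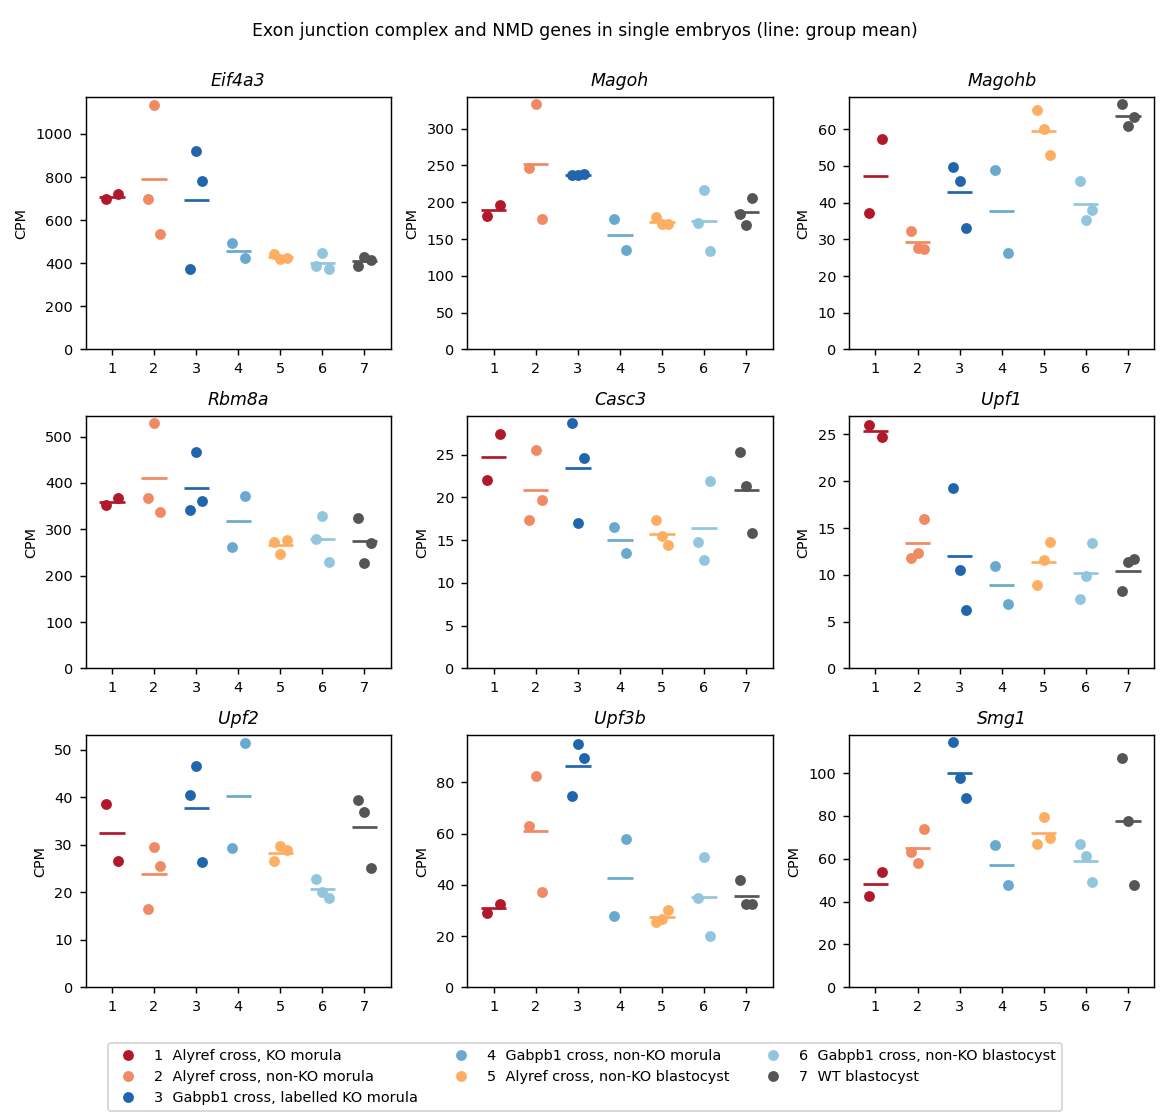
CPM (vertical axis, from 0) of the 9 genes in each of the 19 embryos, by group (horizontal axis, numbered as in the key); each point is an embryo and each line a group mean. Eif4a3 ranges from 372 to 1134 CPM with all blastocysts at or below 449.8. The group means of Magohb are highest in the Alyref-cross and WT blastocysts, though Alyref KO morula 2 lies above the lowest Alyref-cross blastocyst. Upf1 is highest in the 2 Alyref KO morulae.

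Magoh and Magohb encode near-identical proteins from separate genes, Magoh on chr4 (107879755 to 107887424, plus strand, mm10) and Magohb on chr6 (131284388 to 131293244, minus strand). Their coding sequences in GENCODE M21 align over 441 bases with 357 identical (81.0%). The first 120 aligned coding bases are shown because they let a reader see how the counts of the pair can be told apart. Capitals mark the 28 bases that differ.
Magoh: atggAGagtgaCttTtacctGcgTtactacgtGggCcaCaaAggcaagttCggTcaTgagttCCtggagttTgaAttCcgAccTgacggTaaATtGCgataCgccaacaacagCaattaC
Magohb: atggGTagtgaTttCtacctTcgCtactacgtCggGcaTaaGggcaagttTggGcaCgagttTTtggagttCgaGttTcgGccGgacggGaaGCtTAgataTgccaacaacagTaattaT
The longest stretch shared by both coding sequences was 17 bases, shorter than either sequenced read (50 and 25 bases). Magohb has 7 annotated transcripts, 3 of them of the nonsense-mediated decay biotype, and the deposited counts do not separate them. Of the other 8 genes, Smg1 alone has a transcript of that biotype (1 of 10).

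Rbm8a on chr3 (96629933 to 96633791, plus strand) is harder to separate from its copy. Rbm8a2 shares 513 of its 525 coding bases (97.7%), and the longest identical stretch was 116 bases. In the first 120 coding bases, shown for comparison with the pair above, 2 bases differ and are in capitals.
Rbm8a: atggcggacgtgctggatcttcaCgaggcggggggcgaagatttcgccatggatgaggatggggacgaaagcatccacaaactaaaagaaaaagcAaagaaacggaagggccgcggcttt
Rbm8a2: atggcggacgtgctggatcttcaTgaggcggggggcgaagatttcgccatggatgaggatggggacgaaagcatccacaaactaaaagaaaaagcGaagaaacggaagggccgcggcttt
Counts assigned to Rbm8a2 amounted to 8.69% of those of Rbm8a over the 19 embryos. Eif4a3 has 3 copies of 96.3 to 96.8% identity over at least 1236 bases (Gm8994, Gm5580 and the processed pseudogene Gm5576), each with 2.19 to 3.99% of its counts. How reads were divided between these genes is not given in the sources used here, so the values of Eif4a3 and Rbm8a are uncertain. Casc3 is overlapped by the antisense gene Gm12359, which had 7.46% of its counts, and without a stated strand setting their reads cannot be told apart.

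In Alyref KO morulae none of the 9 genes passed the test at an adjusted p under 0.05, a threshold that 0.228% of all tested genes passed, and 3 had an unadjusted p under 0.05 (12.1% of all genes). In 4 of the 9 the KO and non-KO embryos did not overlap, against 24.9% of all genes. The median log2 fold change of the 9 was -0.16, beside -0.04 for all genes. DESeq2 called none of the 9 either. The 5 markers of epiblast and inner cell mass summed to 609 to 656 CPM in the KO embryos and to 532 to 571 CPM in the non-KO morulae, without overlap, and the 7 trophectoderm markers to 599.6 to 1447 and 548 to 1862 CPM, with overlap; their part in the values below was not tested.

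Within the core, Magohb stood at 37.1 and 57.4 CPM in the 2 Alyref KO morulae and at 32.4, 27.7 and 27.4 CPM in the 3 non-KO morulae. Both KO embryos were above all 3 non-KO embryos (log2 fold change 0.70, SE 0.27, adjusted p 0.286). Magoh was at 182 and 196 CPM in KO and at 246, 333 and 177 CPM in non-KO morulae, and the groups overlapped (-0.42, SE 0.24, adjusted p 0.529). As a share of Magoh plus Magohb per kb, Magohb made up 8.37 and 11.6% in the KO embryos and 5.57, 3.58 and 6.46% in the non-KO morulae. The merged exon length is 770 bases for Magoh and 1720 for Magohb, whereas their coding sequences have 441 and 447 bases. The size of the share and of the sum of both genes therefore depends on the length used. Eif4a3 was at 697 and 719 CPM in KO and at 696, 1134 and 536 CPM in non-KO morulae (-0.16, SE 0.31, adjusted p 0.900). The KO values lie inside the non-KO range, and the estimate turns to 0.22 without non-KO morula 2 and to 0.012 with spike-in scaling. Rbm8a (-0.19, SE 0.24) and Casc3 (0.25, SE 0.30) also overlapped between the groups, and Rbm8a turned to 0.049 without non-KO morula 2.

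Among the NMD factors Upf1, the helicase, was at 26.0 and 24.7 CPM in KO morulae and at 11.8, 12.3 and 16.0 CPM in non-KO morulae. These were the highest Upf1 levels of all 19 embryos, the next being 19.3 CPM, but the test was not passed (0.92, SE 0.39, adjusted p 0.354). Upf3b, the adaptor between the exon junction complex and UPF2, was at 29.2 and 32.6 CPM in KO and at 63.0, 82.7 and 37.2 CPM in non-KO morulae. All KO values were below all non-KO values (-0.98, SE 0.39, adjusted p 0.310). Upf3b lies on chrX (37091678 to 37110322, minus strand). Both KO morulae had Y-linked counts and only 1 of the 3 non-KO morulae did, that one having the highest Upf3b of the 3. Smg1 was at 42.6 and 53.6 CPM in KO and at 63.2, 57.9 and 73.8 CPM in non-KO morulae, again without overlap (-0.43, SE 0.28, adjusted p 0.594). Upf2 overlapped (0.45, SE 0.32, adjusted p 0.635).

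In morulae labelled Gabpb1 KO none of the 9 genes passed the test either, against 1.65% of all genes, and 3 had an unadjusted p under 0.05 (18.9% of all genes). Estimates were above 0 for 8 of the 9, and for 9742 of the 18410 genes tested. The embryos labelled KO lay wholly above the non-KO embryos for 4 of the 9, against 15.8% of all genes. That share covers this direction alone, whereas the 24.9% given for Alyref KO morulae covers both directions. The median of the 9 was 0.60, beside 0.06 for all genes. With spike-in scaling these medians were 0.14 and -0.40, and Eif4a3 (-0.16), Magohb (-0.23) and Rbm8a (-0.25) fell below 0. The trophectoderm markers summed to 296 to 2493 CPM in the libraries labelled KO and to 2526 to 4032 CPM in the non-KO morulae. The 5 epiblast and inner cell mass markers summed to 357 to 431 CPM in the former and to 185 to 279.9 CPM in the latter. Neither list overlapped between the groups, and the part of these differences in the values below was not tested.

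Magoh stood at 237, 237 and 238 CPM in the 3 embryos labelled KO and at 177 and 135 CPM in the 2 non-KO morulae. The groups did not overlap (0.60, SE 0.24, adjusted p 0.198). Casc3 was at 28.8, 17.0 and 24.6 CPM against 16.6 and 13.5 CPM, again apart but by a small gap (0.64, SE 0.31, adjusted p 0.276). Eif4a3 was at 374, 919.8 and 783 CPM against 492 and 423 CPM, the first embryo labelled KO lying below both non-KO embryos (0.60, SE 0.32, adjusted p 0.325). Magohb (0.19, SE 0.27) and Rbm8a (0.30, SE 0.24) overlapped, and Magohb turned to -0.19 without non-KO morula 2. Smg1, the kinase of UPF1, was at 114, 97.6 and 88.2 CPM against 66.2 and 47.6 CPM. All 3 labelled KO values were above the non-KO values (0.81, SE 0.29, adjusted p 0.148). Upf3b was at 74.8, 94.9 and 89.6 CPM against 27.8 and 57.8 CPM, with no overlap (1.01, SE 0.39, adjusted p 0.183). Its estimate was 1.64 without non-KO morula 2, 0.58 without non-KO morula 1 and 0.48 with spike-in scaling. Here Y-linked counts were present in 2 of the 3 embryos labelled KO and in 1 of the 2 others. Upf1 (0.42, SE 0.41) and Upf2 (-0.09, SE 0.32) overlapped; Upf1 turned to -0.10 without the first embryo labelled KO, and Upf2 to 0.37 without non-KO morula 2.

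**Figure D2:**
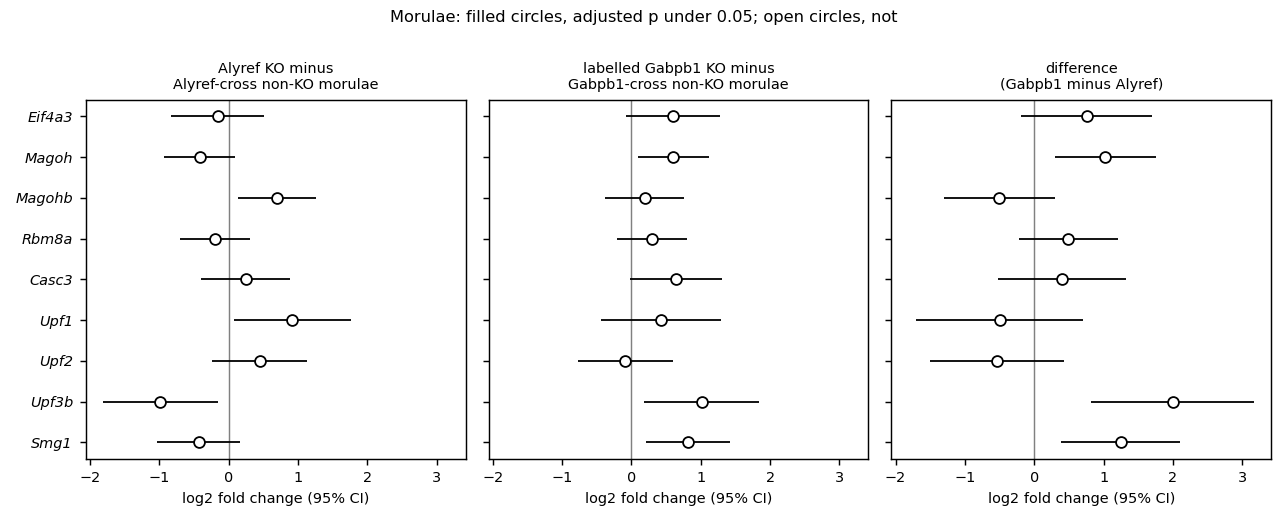
Log2 fold change (horizontal axis) of the 9 genes in Alyref KO morulae, in morulae labelled Gabpb1 KO, each against non-KO morulae of its cross, and the difference between them; circles are edgeR estimates and bars their 95% confidence intervals. All circles are open, none having an adjusted p under 0.05; the largest difference is that of Upf3b at 1.996.

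The difference between the knockout effects was tested directly, as the effect labelled Gabpb1 minus the effect of Alyref. No gene of the 9 passed (0.907% of all genes did). Upf3b was closest: the effects of -0.98 and 1.01 differed by 1.996 (SE 0.55, 95% interval 0.82 to 3.17, adjusted p 0.0965). DESeq2 gave an adjusted p of 0.0164 for the same difference, and leaving out Alyref-cross non-KO morula 3 gave 0.0328 in edgeR. The adjusted p of Upf3b ran from 0.0164 to 0.964 over all alternatives, and the difference was 2.62 without Gabpb1-cross non-KO morula 2 and 1.32 with spike-in scaling. Smg1 differed by 1.25 (SE 0.40, adjusted p 0.145) and Magoh by 1.02 (SE 0.34, adjusted p 0.158, and 0.0409 without Alyref-cross non-KO morula 3). The other 6 differences ran from -0.54 (Upf2) to 0.75 (Eif4a3).

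In the main edgeR fit the only calls among the 9 genes were between stages, and in the Alyref cross alone. In the Alyref cross, non-KO blastocysts had more Magohb and less Upf3b than non-KO morulae, so that 2 of 9 genes passed where 13.0% of all genes did. In 4 of the 9 genes the stages did not overlap, against 38.9% of all genes, and the median of the 9 was -0.40 beside -0.04 for all genes. The comparison shares its 3 morulae with the Alyref KO comparison. Trophectoderm markers summed to 4154 to 6708 CPM in these blastocysts and 548 to 1862 CPM in the morulae. The 5 epiblast and inner cell mass markers summed to 166 to 208 CPM in the blastocysts and 532 to 571 CPM in the morulae, so that neither list overlapped between the stages, and the part of these lists in the values below was not tested.

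Magohb was at 65.2, 60.0 and 53.0 CPM in the blastocysts and at 32.4, 27.7 and 27.4 CPM in the morulae. The lowest blastocyst was well above the highest morula, a 2.04-fold difference (1.03 on the log2 scale, SE 0.24, adjusted p 0.0171). Without blastocyst 1, blastocyst 2 or morula 2 its adjusted p was 0.0691, 0.0625 and 0.0643, at log2 fold changes of 0.95, 1.02 and 1.03. The call was kept in 11 of 17 alternatives, and was also lost with spike-in scaling (0.71, adjusted p 0.638), with the compared groups alone (adjusted p 0.0517) and with the Y-linked level in the model, given below. Magoh moved the other way, from 246, 333 and 177 CPM in the morulae to 180, 170 and 171 CPM in the blastocysts, with overlap and without passing the test (-0.54, SE 0.21, adjusted p 0.101). Magohb therefore made up 13.9, 13.6 and 12.2% of Magoh plus Magohb per kb in the blastocysts and 3.58 to 6.46% in the morulae. The sum of both genes was 260 ± 10.3 CPM per kb (SD, n = 3) in the blastocysts and 345 ± 101 CPM per kb (SD, n = 3) in the morulae.

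**Figure D3:**
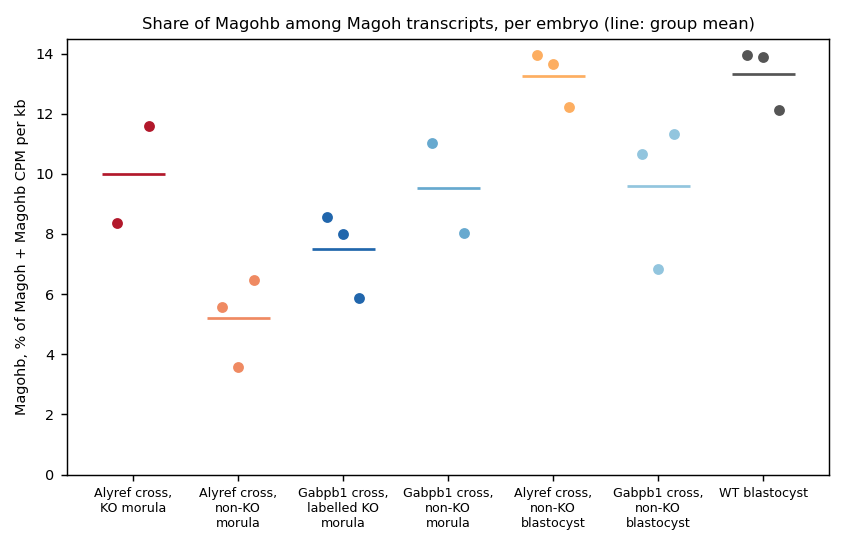
Magohb as a percentage of Magoh plus Magohb CPM per kb (vertical axis, from 0) in each of the 19 embryos by group; points are embryos and lines group means. Alyref-cross non-KO morulae lie at 3.58 to 6.46% and below all Alyref-cross and WT blastocysts, which lie at 12.1 to 13.9%; Gabpb1-cross morulae and blastocysts overlap.

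The other genes of the trimer had lower estimates in blastocysts. Eif4a3 was at 442, 421 and 425 CPM in the blastocysts, below the 536 to 1134 CPM of the morulae (-0.88, SE 0.28, adjusted p 0.0514). Rbm8a was at 273, 246 and 276 CPM, below the 336 to 530 CPM of the morulae (-0.63, SE 0.21, adjusted p 0.0600). Neither passed the test, although DESeq2 called both (adjusted p 0.0242 and 0.0351). Eif4a3, Rbm8a and Magoh all passed in edgeR once morula 3 was left out. They were called in only 3, 2 and 1 of 17 alternatives, and without morula 2 their estimates were -0.48, -0.37 and -0.25. Casc3 overlapped (-0.40, SE 0.27).

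Upf3b was at 25.3, 26.6 and 30.1 CPM in the blastocysts and at 63.0, 82.7 and 37.2 CPM in the morulae. No blastocyst reached the lowest morula (-1.16, SE 0.34, adjusted p 0.0385), a 2.23-fold lower level. All 3 blastocysts had Y-linked counts and 1 of the 3 morulae did. With the Y-linked level in the model the difference was -1.14 at an adjusted p of 0.0720, and Magohb was at 0.75 and 0.0698. Over all embryos Upf3b had a median of 32.6 CPM (25.3 to 94.9) in the 13 with Y-linked counts. In the 6 without, the median was 54.4 CPM (19.9 to 89.6). The 13 include all Alyref-cross and all WT blastocysts, so Y-linked counts and stage are mixed in these medians. The call of Upf3b was kept in 6 of 17 alternatives. It was lost without any 1 of the 3 blastocysts or without morula 1 or 2 (adjusted p 0.0799 to 0.198), with spike-in scaling (0.273), with the FPKM 0.1 filter (0.0606), with both limma fits (0.0548 and 0.0568) and with the compared groups alone (0.0806). Upf1 (-0.24, SE 0.36), Upf2 (0.25, SE 0.29) and Smg1 (0.15, SE 0.25) overlapped between the stages.

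The 250 bases before the annotated start are shown for the pair of genes called between stages of the Alyref cross. They are from RefSeq (GRCm38.p6, the build of the deposited table). Magohb is at chr6:131293245-131293494 and Upf3b at chrX:37110323-37110572, both on the minus strand and read toward the gene. Capitals mark the ETS core GGAAG or its complement CTTCC, the core letters of the sites bound by GABP and other ETS factors.
Magohb: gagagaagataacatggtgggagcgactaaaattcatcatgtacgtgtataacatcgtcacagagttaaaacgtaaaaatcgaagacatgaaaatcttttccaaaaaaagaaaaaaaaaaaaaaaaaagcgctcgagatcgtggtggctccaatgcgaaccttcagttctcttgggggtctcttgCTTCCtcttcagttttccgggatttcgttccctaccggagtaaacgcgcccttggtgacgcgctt
Upf3b: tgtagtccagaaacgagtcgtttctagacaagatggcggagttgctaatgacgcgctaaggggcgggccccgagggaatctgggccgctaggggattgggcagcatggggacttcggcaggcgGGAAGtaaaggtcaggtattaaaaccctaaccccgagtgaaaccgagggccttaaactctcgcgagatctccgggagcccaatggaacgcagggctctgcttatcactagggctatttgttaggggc
RefSeq windows were matched for 7 of the 9 genes. The core letters occur on either strand in 5 of the 7, and in 64.1% of the 32851 windows of all genes. The longer GABP-type motif CCGGAAG, which contains the core, occurs in 0 of the 7 and in 6.91% of all windows.

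In the Gabpb1 cross no gene of the 9, and none of the 18410 tested, passed between non-KO blastocysts and morulae (1237 genes had an unadjusted p under 0.05, and DESeq2 called 57 of all genes and none of the 9). Stages did not overlap in 1 of the 9, against 23.1% of all genes. This was Upf2, the bridge between UPF3B and UPF1, at 22.8, 20.1 and 18.9 CPM in blastocysts and 29.2 and 51.4 CPM in morulae (-0.97, SE 0.32, adjusted p 0.558, and -1.82 with spike-in scaling). Magohb was at 45.9, 35.4 and 38.0 CPM in blastocysts and 49.0 and 26.4 CPM in morulae, which overlapped. Trophectoderm markers summed to 4178 to 5012 CPM in these blastocysts and to 2526 to 4032 CPM in the morulae, which are also the controls of the embryos labelled KO. Whether the stage differences of Magohb and Upf3b differ between the crosses was not tested.

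**Figure D4:**
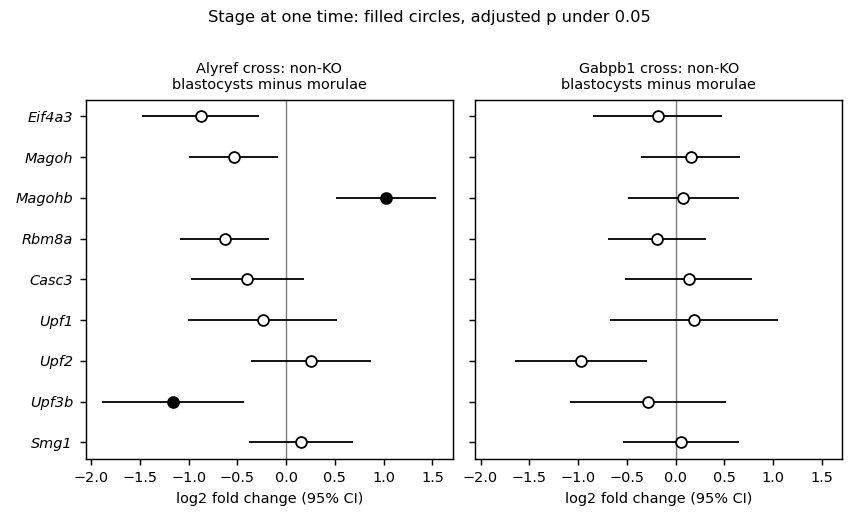
Log2 fold change (horizontal axis) of the 9 genes in non-KO blastocysts against non-KO morulae of the Alyref and the Gabpb1 cross; circles are edgeR estimates, bars 95% confidence intervals and filled circles have an adjusted p under 0.05. Magohb (1.03) and Upf3b (-1.16) are filled in the Alyref cross, and no circle is filled in the Gabpb1 cross.

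The non-KO morulae of the crosses, which serve as the controls of the comparisons above, also differed from each other. Epiblast and inner cell mass markers summed to 185 to 279.9 CPM in the Gabpb1-cross and 532 to 571 CPM in the Alyref-cross morulae, and their part was not tested. None of the 9 genes passed (1.86% of all genes did). In 4 of the 9, however, the Gabpb1-cross morulae lay below all Alyref-cross morulae, against 18.2% of all genes in that direction alone. These were Eif4a3 (-0.79, SE 0.32, adjusted p 0.169), Magoh (-0.69, SE 0.24, adjusted p 0.125), Casc3 and Upf1. Upf2 was higher but overlapped (0.76, SE 0.32, adjusted p 0.178). Without Alyref-cross non-KO morula 3 Eif4a3 and Magoh passed, at adjusted p 0.0497 and 0.0213, and with spike-in scaling they were at -0.15 and -0.096.

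Against WT blastocysts, no gene of the 9 and none of all genes passed in the non-KO blastocysts of either cross. In all genes, 541 and 1123 had an unadjusted p under 0.05 in the Alyref and Gabpb1 crosses, and DESeq2 called 15 and 42, none of them among the 9. In the Alyref cross, 1 gene of the 9 did not overlap (12.2% of all genes), Upf3b, at 25.3 to 30.1 CPM against 32.6 to 42.0 CPM in WT. In the Gabpb1 cross, 2 genes of the 9 did not overlap (12.8% of all genes). Magohb was at 45.9, 35.4 and 38.0 CPM against 66.8, 61.0 and 63.3 CPM in WT (-0.68, SE 0.24, adjusted p 0.788), and Upf2 at 18.9 to 22.8 CPM against 25.1 to 39.3 CPM (-0.71, SE 0.29, adjusted p 0.800). Leaving out WT blastocyst 1, with its Xist and Y-linked counts, or any other embryo made no call among the 9. Both comparisons share the 3 WT embryos. The 5 epiblast and inner cell mass markers summed to 183 to 223 CPM in WT blastocysts. They summed to 272 to 338 CPM in the Gabpb1 cross and 166 to 208 CPM in the Alyref cross. The 4 primitive endoderm markers summed to 218 to 267 CPM in WT. They reached 138 to 212 CPM in the Gabpb1 and 123.5 to 171 CPM in the Alyref cross. Trophectoderm markers overlapped between each cross and WT, and the part of these lists was not tested.

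Of 14 other NMD factors, none passed in either KO comparison, with medians of -0.12 in Alyref KO morulae and 0.02 in morulae labelled Gabpb1 KO. The largest value in Alyref KO morulae was that of Pnrc2, a decapping coactivator, at -0.96 (SE 0.38). In morulae labelled Gabpb1 KO the largest were Pnrc2 at -0.80 (SE 0.36) and Smg5, which acts in the decay of mRNAs marked by UPF1, at 0.79 (SE 0.41). Of 12 genes for loading and the periphery of the exon junction complex, Alyref alone passed in Alyref KO morulae and none in those labelled Gabpb1 KO, with medians of -0.05 and 0.03. Cwc22, which brings EIF4A3 to the spliceosome, was at 1.02 (SE 0.33, adjusted p 0.204) in Alyref KO morulae. Ddx39b, the helicase that recruits ALYREF, was at -0.62 (SE 0.30) and the cap-binding subunit Ncbp2 at 0.58 (SE 0.27) in morulae labelled Gabpb1 KO. Of the 4 copies and paralogs tested (Rbm8a2, Eif4a1, Eif4a2 and Upf3a) none passed. Eif4a2 was at 0.38 (SE 0.25) in Alyref KO morulae and at 0.63 (SE 0.26) in those labelled Gabpb1 KO, Upf3a, the autosomal paralog of Upf3b, at -0.35 (SE 0.28) in the former, and Rbm8a2 at 0.35 (SE 0.30) in the latter.

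Transcripts known as NMD targets gave the largest medians of the lists in both KO comparisons. Of the 10, 9 had estimates above 0 in each KO comparison. Of the 18410 genes tested, 8561 did in Alyref KO morulae and 9742 in morulae labelled Gabpb1 KO. The median of the 10 was 0.46 in Alyref KO morulae and 0.75 in morulae labelled Gabpb1 KO, beside -0.04 and 0.06 for all genes. None passed in Alyref KO morulae, where 0.228% of all genes did. There Gadd45b was at 21.7 to 27.5 CPM against 3.82 to 14.5 CPM in non-KO morulae (1.54, SE 0.70). Gadd45a was low in both, at 1.87 to 6.07 CPM against 1.43 to 3.04 CPM, and overlapped (0.92, SE 0.74). In morulae labelled Gabpb1 KO, 2 of the 10 passed, where 1.65% of all genes did. Gas5, a spliced noncoding host of small nucleolar RNAs whose short reading frame makes it an NMD target, was at 381, 865 and 516 CPM against 158 and 185 CPM (1.77, SE 0.37, adjusted p 0.0290). Snhg1, another such host, was at 148, 214 and 98.5 CPM against 62.2 and 38.6 CPM (1.60, SE 0.35, adjusted p 0.0368). Every embryo labelled KO was above both non-KO morulae of its cross for both transcripts. Alyref-cross non-KO morulae were also above those controls, at 370 to 413 CPM for Gas5 and 87.9 to 122 CPM for Snhg1. They overlapped the embryos labelled KO, and the part of this cross difference in the calls was not tested. With spike-in scaling Gas5 and Snhg1 were at 1.04 and 1.03 without passing (adjusted p 0.602 and 0.593). Gas5 was not called without embryo 2 or 3 labelled KO or without either non-KO morula (adjusted p 0.0528 to 0.177), nor Snhg1 without embryo 2 labelled KO or either non-KO morula (0.0640 to 0.313). Atf3 had the lowest value in morulae labelled Gabpb1 KO, -2.24 with an SE of 1.40, at low levels (0.603 to 1.48 CPM against 4.41 to 4.84 CPM). Between stages of the Alyref cross 1 of the 10 passed, where 13.0% of all genes did. This was Snhg15, lower in blastocysts (-0.89, SE 0.28, adjusted p 0.0478), a call kept in 4 of 17 alternatives (adjusted p 0.0194 to 0.360) and lost without any 1 of morulae 1 and 2 and the 3 blastocysts. Without morula 2 the difference was -0.48 (adjusted p 0.311). The levels of a target follow its synthesis as well as its decay, and the 2 were not measured apart.

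**Figure D5:**
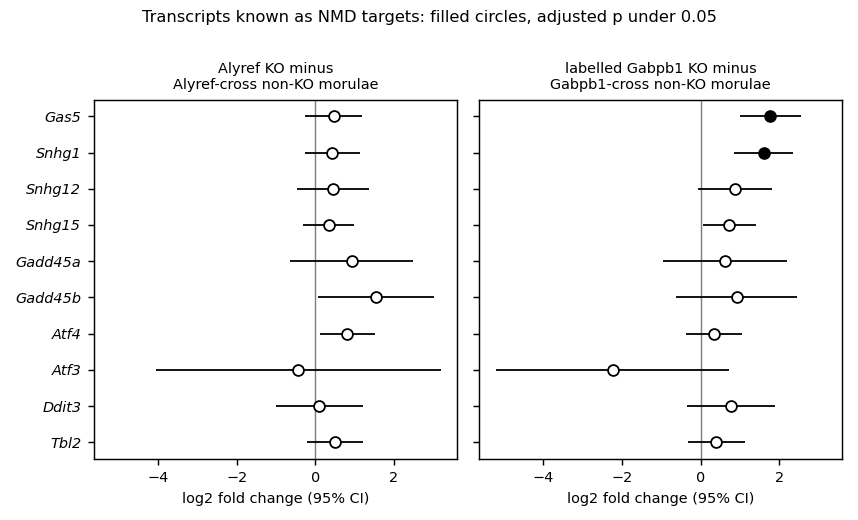
Log2 fold change (horizontal axis) of 10 transcripts known as NMD targets in Alyref KO morulae and in morulae labelled Gabpb1 KO, each against non-KO morulae of its cross; circles are edgeR estimates, bars 95% confidence intervals and filled circles have an adjusted p under 0.05. Gas5 (1.77) and Snhg1 (1.60) are filled in the second panel; Atf3 has the widest intervals.

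Among 8364 tested genes of mean FPKM 5 or more, the levels most like those of each gene over the 19 embryos were, for Eif4a3, its pseudogene Gm5576 (Pearson r 0.98) and the kinetochore gene Dsn1 (0.96), and for Rbm8a, its copy Rbm8a2 (0.94) and Wwtr1 (0.92). For Magoh they were Gm11942 and AC117232.1 (both 0.91), and for Magohb Ndufaf5 (0.83) and Gm11625 (0.82). Upf3b was most like Gtf2h5 and Lzic (both 0.89), Smg1 most like the chromatin remodelling gene Arid1a (0.87) and Usp34 (0.86), and Upf1 most like Cenps (0.80) and Med9 (0.79). Casc3 (Gm22123 and Akap8, both 0.77) and Upf2 (Alg5 at 0.77 and Rcor1 at 0.69) had the loosest matches. The points share groups and library depth, and the match of Eif4a3 with Gm5576 and of Rbm8a with Rbm8a2 is between near-identical sequences.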

How the data were processed

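Single embryos were lysed, ERCC spike-in RNA was added, and cDNA was amplified over 16 PCR cycles before paired sequencing (50 and 25 bases), per the labels. The submitters' processing notes name Trimmomatic, Trim Galore, cutadapt, STAR, featureCounts and mm10; the counting's strand setting is not given in the sources used here. The deposited values are raw counts per gene by the authors, although the table is named for FPKM, with 53379 gene and 92 ERCC rows. FPKM was computed from these counts and the deposited exon length, for the filter: 1 or more in at least 2 of 19 embryos, which kept 18410 genes. edgeR 4.0.16 (TMM, quasi-likelihood F test, 7 group means, 12 residual degrees of freedom) tested 8 contrasts; adjusted p-values are Benjamini-Hochberg over all genes, called under 0.05. Every adjusted p is edgeR's unless another tool is named. SE is the log2 fold change over the square root of F. CPM are TMM-scaled. Embryos are separate samples, and no pair of a group agreed within sampling noise. Counts after PCR are not independent molecules. Coding sequences and annotations are from GENCODE M21, whose identifiers match all 9 genes, and copies were sought with BLAST+ at 90% identity or more over at least 200 bases. On simulated counts for the Gabpb1 comparison (18410 genes) the test called 29 of 50 genes raised 4-fold and 4 of 50 raised 2-fold. The genes, lists and tests were chosen with earlier results of these data known. Named are the 9 genes, list genes that passed, the 2 largest values per list in each KO comparison, and 2 most similar genes each; 1 gene under this rule is not reported here. Alternatives were other scalings (RLE, ERCC), filters (FPKM 0.1 or 5), DESeq2 1.42.0, limma 3.58.1 on log2(FPKM + 1 or 0.1), the compared groups alone, a replicate block, Y-linked level as covariate and leaving out each embryo; TMM over all gene rows was added after seeing the data.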

Additional observations from a re-analysis of the deposited data

Results flagged for a closer look

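Alyref, a targeted gene and a partner of the exon junction complex, was the only gene of the lists whose response differed between the KO comparisons by the test of the difference itself. Its log2 fold change was -2.06 (SE 0.30) in Alyref KO morulae and -0.28 (SE 0.27) in morulae labelled Gabpb1 KO, and the difference was 1.77 (SE 0.40, adjusted p 0.0484 by edgeR). The adjusted p ran from 0.00257 to 0.964 over the alternatives, with 7 of 21 alternatives keeping the call. Leaving out 1 embryo gave differences of 1.46 to 2.13, and spike-in scaling gave 1.14. The Alyref KO label was given from missing reads over the deletion in these same libraries, so the difference is not independent of it.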

How the results depend on the processing

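The groups hold 2 or 3 embryos, and the number of calls moved with most settings, while no alternative called any of the 9 genes in either KO comparison, in the Gabpb1-cross stage difference or against WT. In the Alyref-cross stage difference, the genes of the 9 called were 4 with DESeq2, 1 each with the FPKM 0.1 filter and both limma fits, 0 each with ERCC scaling, the compared groups alone and the Y-linked covariate, and 0 to 5 leaving out 1 embryo. In the difference between KO effects 1 was called with DESeq2 and 0 to 2 leaving out 1 embryo, and in the cross difference 0 to 2.

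Counts over all genes, in the order Alyref KO, Gabpb1 KO, their difference, Alyref-cross stage and cross difference, were 42, 303, 167, 2402 and 342 as reported. They were 0, 26, 10, 352 and 2 with ERCC scaling, 502, 1284, 894, 3762 and 1709 with DESeq2, and 0, 0, 0, 24 and 0 with the compared groups alone. With limma on log2(FPKM + 1) they were 164, 532, 271 and 683 (all but the stage difference), and with a pseudocount of 0.1 80, 477 and 575 (both KO effects and the cross difference). The FPKM 0.1 filter gave 6, 182, 111 and 77 (all but stage), the FPKM 5 filter 75 for Alyref KO, and the Y-linked covariate 1 and 178 for the KO effects. The Gabpb1-cross stage count of 0 became 57 with DESeq2, 10 with limma on log2(FPKM + 1) and 3 with the Y-linked covariate. Against WT, DESeq2 gave 15 and 42, limma on log2(FPKM + 1) 5 and 4, and with a pseudocount of 0.1 the Gabpb1 cross 3. Leaving out 1 embryo gave 0 to 128 (highest without non-KO morula 3) for Alyref KO, 48 to 966 for Gabpb1 KO (lowest without non-KO morula 2, highest without labelled KO 1), 16 to 707 for their difference, 346 to 4560 for the Alyref-cross stage, 0 to 6 for the Gabpb1-cross stage, 0 to 2435 for the cross difference and 0 to 1 against WT in either cross. The share of higher calls moved with ERCC scaling, from 64 higher and 239 lower to 0 and 26 for Gabpb1 KO, from 66 and 101 to 0 and 10 for the difference, from 1035 and 1367 to 31 and 321 for the Alyref-cross stage, and from 218 and 124 to 2 and 0 for the cross difference. Other splits moved by over 10 percentage points were, for Alyref KO (17 and 25 as reported), 106 and 58 with limma on log2(FPKM + 1), 10 and 25 with TMM over all gene rows, 2 and 6 with the replicate block and 0 and 1 with the Y-linked covariate. They were 15 and 167 (FPKM 0.1 filter) and 479 and 805 (DESeq2) for Gabpb1 KO, and 69 and 202 or 57 and 140 (limma, pseudocounts 1 and 0.1) for the difference. They were 1585 and 1011 or 1589 and 1018 (the same limma fits) for the Alyref-cross stage, and 64 and 13 (FPKM 0.1 filter), 914 and 795 (DESeq2) and 512 and 171 (limma, pseudocount 1) for the cross difference. The causes were not tested.

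Signs turned only for values that no fit called. ERCC scaling moved the median of all genes to -0.40 for Gabpb1 KO, -0.34 for the Alyref-cross stage and -0.86 for the Gabpb1-cross stage. With it Eif4a3 was at 0.012 in Alyref KO and at -0.16 in Gabpb1 KO, Magohb at -0.23 and Rbm8a at -0.25 in Gabpb1 KO, and Smg1 at -0.20 in the Alyref-cross stage difference. Leaving out 1 embryo gave -0.37 to 0.22 for Eif4a3 and -0.32 to 0.049 for Rbm8a in Alyref KO, and -0.19 to 0.70 for Magohb, -0.10 to 0.79 for Upf1 and -0.44 to 0.37 for Upf2 in Gabpb1 KO.

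With the replicate number as a block, Alyref KO had 8 calls in place of 42, and Alyref in the difference (1.73, adjusted p 0.0684) and Snhg15 (-0.84, adjusted p 0.0652) lost theirs; the call of no other named gene changed. With the compared groups alone Alyref (adjusted p 0.559), Gas5 (0.319) and Snhg1 (0.332) were not called, nor was Snhg1 with the FPKM 0.1 filter (0.0551). Deviations of same-numbered embryos correlated between -0.16 and 0.17, so the numbers do not pair embryos. Depth allowed 83 or more counts of each of the 9 genes in each library.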
